A study of Homo sapiens with 6 samples.

Results

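AP-1 is a family of transcription factors of the basic leucine zipper (bZIP) class, which bind DNA as pairs. The 10 genes described here are FOS, FOSB, FOSL1, FOSL2, JUN, JUNB, JUND, ATF3, BATF3 and MAFF. They were taken by gene symbol from a table of 58735 genes, and all 10 were among the 15242 genes with enough counts to be tested.

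RNA-seq was run on MDA-MB-231 cells, a human triple-negative breast cancer cell line. The parent group, labelled wild type, held 3 libraries, and the Adriamycin-resistant group (ADRr) held 3. ADRr cells were raised from the parent line by stepwise exposure to rising amounts of Adriamycin, a DNA-damaging anthracycline also called doxorubicin, and single clones were then picked by limiting dilution. The ADRr libraries therefore stand for 1 resistant line, and a property of that clone cannot be told apart from a property of resistance. Whether the drug was in the medium at harvest was not given in the sources used here. The labels do not say that the replicates were separate cultures, so the p-values measure only the spread between these libraries, which may be technical.

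JUN proteins can pair with one another or with FOS proteins, whereas FOS proteins need a partner, usually from the JUN family. The pairs bind a short palindrome, the TPA response element TGACTCA (TRE), and pairs that include ATF proteins prefer the cyclic AMP response element TGACGTCA (CRE). Transcription of many AP-1 genes is switched on within minutes by growth factors or stress through the ERK, JNK and p38 MAP kinases, and JUN is itself phosphorylated by JNK. In triple-negative breast cancer cells FOSL1, also called FRA-1, is known as an abundant FOS protein.

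Total counts ranged from 15983985 to 18272314 per library. A count of 3, used below as the detection floor, corresponded to 0.164 to 0.188 CPM (the library's counts scaled to a common total). The line's labelled identity was checked on marker genes. VIM, CD44, EGFR, AXL and LGALS1, known to be abundant in this line, were abundant in both groups, though not all at the same level. In ADRr, CD44 (log2 fold change 0.80) and EGFR (1.39) were called higher and VIM (-0.56) and AXL (-0.62) lower. LGALS1 was not called (0.16). The hormone receptor genes ESR1 and PGR had at most 3 counts in any library. The epithelial genes CDH1 and EPCAM, listed as low in this line, were detected. CDH1 had 233 to 259 counts in the parent libraries and was called lower in ADRr (log2 fold change -1.07). EPCAM had 152 to 266 counts in parent and 439 to 492 in ADRr and was called higher (1.10). Among 10 leukocyte markers, 6 had at most 3 counts in every library, including TYROBP at 0 in all. The summed level of the leukocyte markers was 59.4 to 65.2 CPM in the parent libraries and 91.3 to 96.6 CPM in the ADRr libraries. Most of it was LAPTM5, the single marker called higher (log2 fold change 0.68), whereas CSF1R was called lower (-1.31) and CD14 was not called (-0.16). The part of these genes in the results was not tested. In these bulk libraries, fewer cells of a type and less RNA per cell cannot be told apart.

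Sites of the AP-1 and CRE type were searched in the start regions of the members, because AP-1 genes are known to be regulated by factors of their own class. RefSeq (GRCh38.p14) gave windows from 250 bases before to 50 bases after the annotated start for 8 of the 10 members. ATF3 and MAFF had a second window each. FOSL1 and BATF3 had no entry. Each stretch below holds 30 bases around a match, read 5′ to 3′ on the gene's strand, with the matched letters in capitals. JUN and ATF3 shared the letters TGACATCA.
JUN chr1:58784096-58784125, minus strand: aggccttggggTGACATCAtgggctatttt
ATF3 chr1:212565273-212565302, plus strand: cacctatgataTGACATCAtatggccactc
FOSL2 was the member with the TRE, just after its start.
FOSL2 chr2:28392851-28392880, plus strand: tgccattgtagTGACTCAtctcgggcagag
JUND and MAFF held the full CRE.
JUND chr19:18281804-18281833, minus strand: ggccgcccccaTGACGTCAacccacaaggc
MAFF chr22:38201929-38201958, plus strand: ggccgggtcggTGACGTCAccgcatgactg
JUN and FOSL2 also held TGACG, the first 5 letters of the CRE, at stretches not shown here. FOS, FOSB and JUNB held TGACG without any of the longer matches.
FOS chr14:75278752-75278781, plus strand: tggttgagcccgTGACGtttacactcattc
FOSB chr19:45467924-45467953, plus strand: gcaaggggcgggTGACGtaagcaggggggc
JUNB chr19:12791337-12791366, plus strand: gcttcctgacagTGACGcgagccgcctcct

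The matches lay at different distances from the annotated starts. The first matched base was at -67 for JUN, -123 for ATF3, +5 for FOSL2, -200 for JUND and -54 for MAFF. For FOS, FOSB and JUNB it was at -64, -60 and -137. Among 35116 human start windows of 300 bases, read on both strands, 4.95% held TGACTCA, 1.85% held TGACGTCA and 2.61% held TGACATCA. The TGACATCA letters were chosen after the members' windows had been read, so their presence in JUN and ATF3 is a description. The shorter TGACG, which lies inside the CRE, was held by 24.6% of all windows and by 7 of the 10 member windows. The JUN and MAFF windows lay wholly inside exons of the GENCODE 29 annotation, and so did the TRE match of FOSL2. A match describes letters only. Binding was not measured in these libraries.

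ATF3 was among the members with the largest difference. The part of its first start window that lies before any annotated exon is therefore shown in full. It lies at chr1:212565157-212565333 on the plus strand, with the TGACATCA match in capitals. The second ATF3 window, chr1:212614768-212615067, held no match to the letters searched. Which start these cells used was not determined.
ATF3 start region: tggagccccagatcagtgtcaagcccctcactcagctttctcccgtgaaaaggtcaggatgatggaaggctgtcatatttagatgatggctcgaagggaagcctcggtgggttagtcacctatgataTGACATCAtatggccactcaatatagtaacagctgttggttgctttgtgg

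AP-1 transcripts were higher in ADRr cells for 6 of the 10 members. MAFF, ATF3 and BATF3 were 5.20-fold, 4.34-fold and 2.04-fold higher. JUNB, JUND and FOSL2 were higher by 1.22-fold to 1.41-fold. JUN, FOSL1, FOS and FOSB were not called, and no member was called lower. A gene was called when edgeR's quasi-likelihood test gave a Benjamini-Hochberg adjusted p of at most 0.05 and the fold change was at least 1.2, which is 0.263 on the log2 scale. By the same rule 29.2% of all tested genes were called higher and 29.6% lower. The median log2 fold change was 0.29 over the 10 members and -0.0061 over all tested genes. Every ADRr library lay above every parent library for 6 members, FOSL2, JUN, JUNB, ATF3, BATF3 and MAFF, and below for 0. Over all tested genes those shares were 34.5% and 34.7%. Of the members 60.0% were called higher, a count of 10 genes only, and the sizes of the differences are given below gene by gene.

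**Figure D1:**
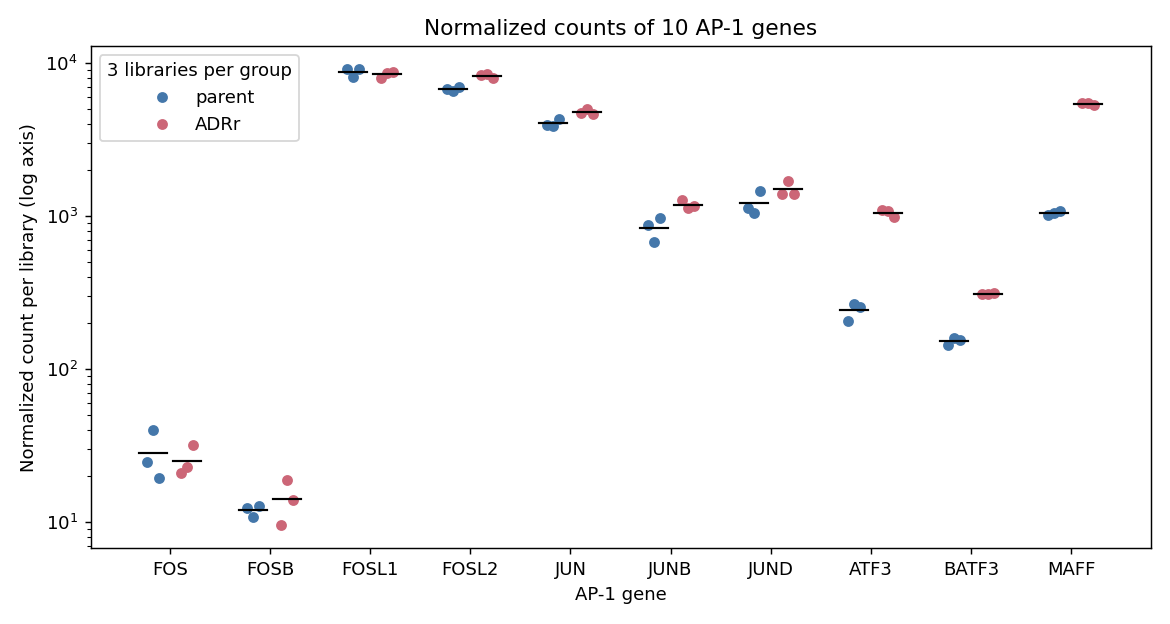
Normalized read counts of the 10 AP-1 genes in each library, on a log axis, with parent and ADRr libraries side by side (points, single libraries; bars, group means). MAFF, ATF3 and BATF3 show wide gaps between the groups, with 5276 to 5485 counts for MAFF in ADRr against 1008 to 1074 in parent. The points of FOS, FOSB, FOSL1 and JUND overlap.

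The JUN family showed small differences. JUN (ENSG00000177606, GRCh38 chr1:58780788-58784327, minus strand), the first identified member and the main JNK substrate, had 3922, 3864 and 4274 normalized counts in the parent libraries. In the ADRr libraries it had 4726, 4958 and 4610. Normalized counts here are read counts scaled to the mean effective library size. All ADRr values lay above all parent values. The log2 fold change was 0.24 (SE 0.053, 95% interval 0.14 to 0.35, adjusted p = 3.2e-04), a 1.18-fold difference that passed the test but missed the 1.2-fold threshold. JUN crossed that threshold when libraries were scaled by total count alone (0.27), without parent replicate 3 (0.29) and without ADRr replicate 3 (0.27).

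JUNB (ENSG00000171223, chr19:12791496-12793315, plus strand) encodes a JUN protein that is a weaker activator than JUN in many settings. It had 869, 672 and 972 normalized counts in parent and 1269, 1119 and 1158 in ADRr. The groups did not overlap, although the parent values were spread. Its log2 fold change was 0.49 (SE 0.094, 95% interval 0.30 to 0.69, adjusted p = 7.3e-05). JUNB lies inside the gene HOOK2 on the opposite strand, and 259 of its 1820 exonic bases are shared with HOOK2 exons. Whether counting used strand was not given in the sources used here, so reads over those bases cannot be assigned to either gene. HOOK2 was not called (log2 fold change 0.19).

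JUND (ENSG00000130522, chr19:18279760-18281622, minus strand) encodes the JUN protein that is broadly present in resting cells. It had 1132, 1041 and 1456 normalized counts in parent and 1394, 1694 and 1383 in ADRr. The groups overlapped, since parent replicate 3 was above ADRr replicates 1 and 3. JUND had a log2 fold change of 0.30 (SE 0.095, 95% interval 0.10 to 0.50, adjusted p = 0.0086). This call depended on the method and on single libraries. With DESeq2 the adjusted p was 0.16, and with limma on log2(FPKM + 1) it was 0.079. It was also lost without parent replicate 1 (0.25, adjusted p = 0.070), parent replicate 2 (0.19, 0.037, under the fold threshold) or ADRr replicate 2 (0.20, 0.094).

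Of the FOS family, FOSL2 alone was called. FOSL2 (ENSG00000075426, chr2:28392448-28417312, plus strand), also called FRA-2, had 6749, 6523 and 6935 normalized counts in parent. In ADRr it had 8273, 8458 and 8013. The groups were well apart against a small spread. Its log2 fold change was 0.29 (SE 0.047, 95% interval 0.19 to 0.39, adjusted p = 1.1e-05), and the interval holds the fold threshold. When the test was made against the 1.2-fold threshold itself, with edgeR's glmTreat, FOSL2 (adjusted p = 0.19) and JUND (0.26) were no longer called, whereas JUNB, ATF3, BATF3 and MAFF were.

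FOSL1 (ENSG00000175592, chr11:65892049-65900573, minus strand) had 9146, 8092 and 9077 normalized counts in parent and 7997, 8518 and 8768 in ADRr. The ranges overlapped. The log2 fold change was -0.06 (SE 0.053, adjusted p = 0.35), and its 95% interval ran from -0.17 to 0.05.

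FOS and FOSB, the classical immediate early members, were near the lower end of what could be tested. FOS (ENSG00000170345, chr14:75278774-75282230, plus strand) had raw counts of 24, 37 and 20 in parent and 22, 22 and 34 in ADRr. FOSB (ENSG00000125740, chr19:45467995-45475179, plus strand) had raw counts of 12, 10 and 13 in parent and 10, 18 and 15 in ADRr. In both genes the groups overlapped. FOS had a log2 fold change of -0.14 (95% interval -0.85 to 0.56, adjusted p = 0.73) and FOSB of 0.23 (95% interval -0.64 to 1.09, adjusted p = 0.65). At these counts, differences of the sizes inside these intervals remain possible. FOSB lies inside ERCC1 on the opposite strand, a gene that was called higher (log2 fold change 0.31), though their annotated exons share 0 bases.

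Within the FOS family, FOSL1 held a lower share and FOSL2 a higher share in each ADRr library than in each parent library. Levels of different genes were compared as FPKM, fragments per kilobase of gene scaled to library size, for which the authors divided counts by gene length. FOSL1 made up 83.0% ± 0.674 (SD, n = 3) of the summed FPKM of FOS, FOSB, FOSL1 and FOSL2 in parent and 79.3% ± 0.998 in ADRr. FOSL2 made up 16.8% ± 0.616 in parent and 20.5% ± 1.03 in ADRr. The difference was -3.65 percentage points for FOSL1 and 3.67 for FOSL2, each with exact permutation p = 0.1 (two-sided). That is the smallest p that 3 libraries against 3 can give. FOS and FOSB together stayed under 1% of the family in both lines. The family's summed FPKM was 320.2 ± 19.4 in parent and 322.8 ± 11.6 in ADRr (exact permutation p = 0.9).

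The JUN family was compared in the same way. The summed FPKM of JUN, JUNB and JUND was 125.8, 115.4 and 143.9 in the parent libraries. It was 159.5, 167.2 and 154.2 in the ADRr libraries, so that each ADRr library was above each parent library (exact permutation p = 0.1). JUN held 50.8% ± 3.11 of the family in parent and 48.2% ± 0.364 in ADRr (exact permutation p = 0.4). JUNB held 20.4% ± 1.86 and 23.3% ± 2.07 (exact permutation p = 0.3), and JUND 28.8% ± 1.90 and 28.6% ± 2.22 (exact permutation p = 0.9). These share p-values cover 7 genes and were not adjusted, since none could pass at this number of libraries.

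**Figure D2:**
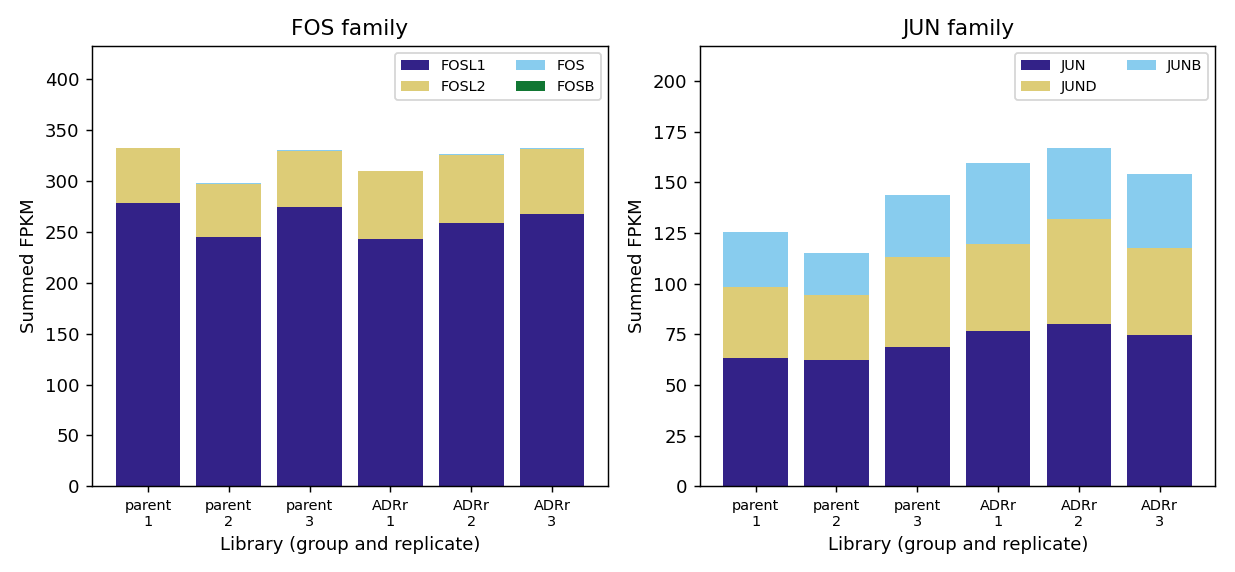
Stacked FPKM of the FOS family and of the JUN family in each of the 6 libraries, with 1 colour per gene. FOSL1 fills most of every FOS family bar, FOS and FOSB are too low to be read, and the JUN family bars are taller in the ADRr libraries (154.2 to 167.2 FPKM) than in the parent libraries (115.4 to 143.9 FPKM).

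ATF3 and BATF3 were among the 3 members with the widest gaps. ATF3 (ENSG00000162772, chr1:212565334-212620777, plus strand), a stress-induced factor that represses as a homodimer and can pair with JUN proteins, had 207, 265 and 254 normalized counts in parent. In ADRr it had 1087, 1080 and 988. The lowest ADRr library was far above the highest parent library. The log2 fold change was 2.12 (SE 0.091, 95% interval 1.93 to 2.31, adjusted p = 3.8e-15), and 330 of the tested genes, 2.17%, had a larger one. ATF3 is also the member with the TGACATCA match at -123 shown above.

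BATF3 (ENSG00000123685, chr1:212686418-212699985, minus strand) encodes a short bZIP protein without an activation domain that pairs with JUN proteins and is best known from dendritic cells. It had 143, 159 and 154 normalized counts in parent. In ADRr it had 309, 310 and 312, a narrow range. This gave a log2 fold change of 1.03 (SE 0.11, 95% interval 0.80 to 1.26, adjusted p = 2.0e-08), and 1442 tested genes, 9.46%, had a larger one. ATF3 and BATF3 lie on chromosome 1 with 65640 bases between their annotated ends and 0 tested genes wholly in between.

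MAFF had the largest difference among the members. MAFF (ENSG00000185022, chr22:38200767-38216511, plus strand) encodes a small MAF protein, which has no activation domain of its own and pairs with factors such as NRF2 and BACH1. It had 1008, 1040 and 1074 normalized counts in parent. In ADRr it had 5476, 5485 and 5276. The gap between the groups was many times the spread within either. The log2 fold change was 2.38 (SE 0.055, 95% interval 2.26 to 2.49, adjusted p = 7.1e-20). Among the tested genes 248, or 1.63%, had a larger log2 fold change. PLA2G6, on the opposite strand, overlaps the MAFF locus and was also called higher (log2 fold change 1.41). The annotated exons of the pair share 0 bases, and PLA2G6 had at most 305 counts in any library.

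The small MAF family was set side by side after these values had been seen, so its shares carry no test. MAFF was at 10.6 FPKM in parent and 55.3 in ADRr. MAFG was at 17.4 and 38.6 FPKM, and MAFK at 13.3 and 15.9 FPKM. MAFF thus went from 25.8% ± 1.33 (SD, n = 3) to 50.4% ± 0.716 of the summed FPKM of these genes. MAFG was called higher in its own right (log2 fold change 1.15), whereas MAFK was not called (0.25).

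**Figure D3:**
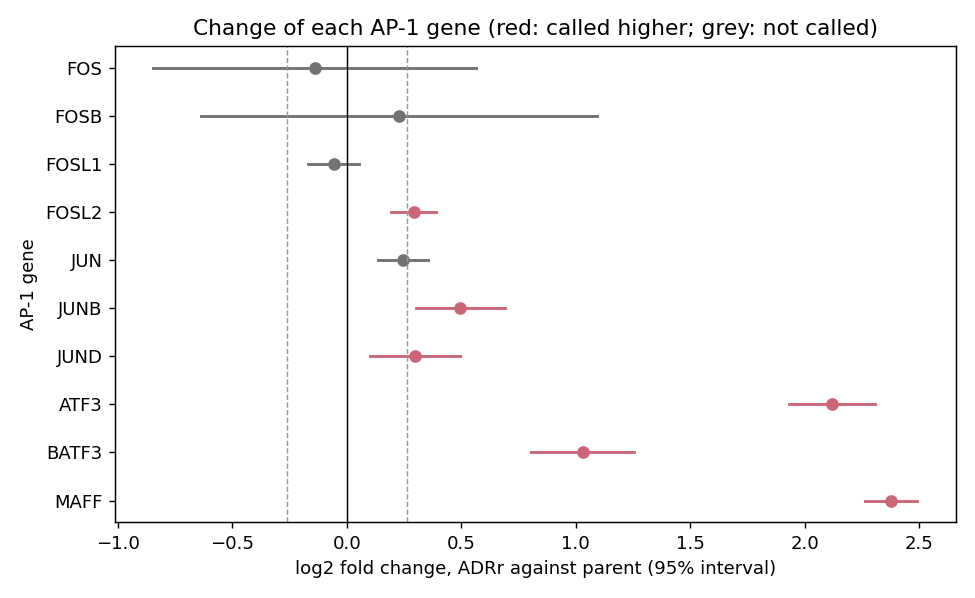
Log2 fold change of each AP-1 gene in ADRr relative to parent, with 95% intervals computed from edgeR's test statistic, and dashed lines at the 1.2-fold threshold. MAFF (2.38), ATF3 (2.12) and BATF3 (1.03) stand far from the threshold, JUNB, JUND, FOSL2 and JUN lie near it, and the intervals of FOS and FOSB span both directions.

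The order of the members by FPKM was largely shared by the lines. In parent, FOSL1 was at 266 ± 18.1 FPKM (SD, n = 3), followed by JUN at 64.9 ± 3.45, FOSL2 at 53.8 ± 1.61, JUND at 37.1 ± 6.62 and JUNB at 26.3 ± 4.77. MAFF was next at 10.6 ± 0.305, then ATF3 at 3.42 ± 0.43, BATF3 at 3.20 ± 0.165, FOS at 0.496 ± 0.188 and FOSB at 0.123 ± 0.0102. The libraries of ATF3 and BATF3 overlapped in parent, and no other neighbours in that order did. In ADRr, FOSL1 was at 256 ± 12.1 FPKM, JUN at 77.2 ± 2.65 and FOSL2 at 66.1 ± 1.61. MAFF was next at 55.3 ± 1.08, above JUND at 45.9 ± 5.31 and JUNB at 37.2 ± 2.48. ATF3 was at 14.9 ± 0.751 and BATF3 at 6.56 ± 0.045, and their libraries no longer overlapped. FOS, at 0.447 ± 0.103, and FOSB, at 0.146 ± 0.0478, were again lowest.

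The members are spread over 6 chromosomes, and the genes around them were examined for shared differences. For each member the 10 nearest tested genes on its chromosome were taken, 5 on each side. Around MAFF their median log2 fold change was 0.02, with 4 called higher and 3 lower. Around ATF3, where BATF3 is 1 of the 10, it was -0.0078, with 4 higher and 3 lower. Around FOSL2 the neighbours had a median of 0.39, with 6 called higher and 0 lower, and its own log2 fold change of 0.29 was below that median. Around JUNB the median was -0.19, with 1 called higher and 5 lower. The other members' neighbourhoods had medians of -0.20 to 0.31. The counts of called neighbours are of 10 genes each. They stand against 29.2% called higher and 29.6% called lower over all tested genes, and were not tested.

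Other bZIP genes that pair or compete with AP-1 were mostly higher in ADRr. Of 19 listed, 15 could be tested, and 12 were called higher, 0 lower and 3 not, against the 29.2% and 29.6% of all tested genes given above. With 10 counts required in every library, 11 were called higher. The median log2 fold change of those tested was 0.71. DDIT3, the stress factor CHOP, went from 187 ± 21.7 to 1038 ± 26.7 normalized counts (SD, n = 3; log2 fold change 2.47, SE 0.090, adjusted p = 1.9e-16). BATF2, a relative of BATF3, went from 26.6 ± 7.79 to 79.7 ± 12.1 (1.57, SE 0.25, adjusted p = 1.0e-05). Both genes had all ADRr libraries above all parent libraries. The list overlaps in function with the members, and it was chosen with earlier results of these data known.

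Genes of the kinases that act on AP-1 were more often called lower than higher in ADRr. Of 26 listed genes of the MAP kinase cascade 24 were tested, with a median log2 fold change of -0.19. Of these 2 (8.33%) were called higher, 11 (45.8%) lower and 11 not, against 29.2% and 29.6% of all tested genes. The 2 called higher were MAPK8, which encodes the JUN kinase JNK1 (0.44, adjusted p = 2.5e-06), and MAPK11, which encodes p38β (0.69, adjusted p = 1.7e-04). Of the other p38 genes, named after their values were seen, MAPK14 (-0.95) and MAPK13 (-0.34) were called lower and MAPK12 (-0.03) was not called. MAPK14 went from 3718 to 1923 normalized counts, and MAPK11 from 118 to 191. MAP3K4 and MAP3K8, kinases at the top of the cascade, had the largest decreases and fell by 1.01 each on the log2 scale. Kinase activity was not measured, and the list was chosen with earlier results of these data known.

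The phosphatases that switch MAP kinases off were split. All 11 listed were tested, with 5 called higher, 4 lower and 2 not, and a median of 0.25. These shares, 45.5% higher and 36.4% lower, were read against the 29.2% and 29.6% of all tested genes. With 11 genes they are no result about the list. DUSP5, which acts on ERK in the nucleus, went from 579 ± 10.1 to 8153 ± 200.4 normalized counts (log2 fold change 3.81, adjusted p = 4.9e-23). DUSP1, itself an immediate early gene, went from 345 ± 12.5 to 1639 ± 175.1 (2.25, adjusted p = 2.0e-16). DUSP14 fell by 0.85 and DUSP7 by 0.70 on the log2 scale. DUSP9, named after its values were seen, was the lowest point of the list and rested on few reads, with raw counts of 16, 10 and 31 in parent and 2, 0 and 4 in ADRr. It entered the test through the parent libraries in which it was high, and with 10 counts required in every library 3 phosphatases were called lower.

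Immediate early genes other than the members, listed together with the serum response factor (SRF) axis that drives them, were 30, of which 26 were tested. Of these 13 were called higher, 5 lower and 8 not, with a median of 0.24. The counts stand against 29.2% called higher and 29.6% called lower over all tested genes, and were not tested. KLF4 (2.56) and KLF6 (1.64), zinc finger factors, had the largest increases. CTGF, a target of the YAP and SRF pathways, fell by 1.77 and MRTFB, an SRF coactivator, by 0.77 on the log2 scale. EGR1, named after its values were seen because it is induced along with FOS, had 430 ± 29.7 normalized counts in parent and 474 ± 29.4 in ADRr and was not called (0.14, adjusted p = 0.17).

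Of 8 tested genes that control AP-1 protein stability or encode its cofactors, 1 was called higher, 3 lower and 4 not, with a median log2 fold change of -0.08. These shares, 12.5% higher and 37.5% lower, were read against the 29.2% and 29.6% of all tested genes and are no result about the list. ITCH, an E3 ligase for JUN proteins, was the one called higher (0.58). USP28, a deubiquitinase, fell by 0.56 on the log2 scale. Protein levels of the members were not measured, so these values concern transcripts only.

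Of 34 listed AP-1 target genes, chosen with earlier results of these data known, 26 could be tested. Of those, 23 (88.5%) were called higher, 1 (3.85%) lower and 2 not, against 29.2% and 29.6% of all tested genes. The median log2 fold change of the tested targets was 1.02. Some of these entered the test through the ADRr libraries in which they were high, as MMP1 and SERPINB2 did, so that the count is a description. With 10 counts required in every library, 19 were called higher and 1 lower. MMP1, a collagenase with AP-1 sites in its promoter, had raw counts of 17, 2 and 15 in the parent libraries and 2077, 1812 and 2025 in the ADRr libraries (fitted log2 fold change 7.35). The groups did not come near each other. SERPINB2, a protease inhibitor, had at most 3 counts in every parent library and a mean of 64.3 normalized counts in ADRr, at least 19.8-fold higher against a floor of 3 counts per library. EZR, the membrane linker ezrin, was the target called lower and fell by 0.69 on the log2 scale. The targets not called were CCND1 (-0.26) and F3 (0.11). Many of these genes also answer to other factors, and the part of AP-1 in their levels was not tested.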

How the data were processed

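Counts and FPKM per gene, deposited by the authors in separate tables, were used. Per the submitters' processing notes, reads were trimmed with fastp, aligned with HISAT2 2.0.5 to GRCh38 and counted with featureCounts 1.5.0-p3, and DESeq2 1.20.0 was used for their own comparison. The strand setting was not given in the sources used here. The sample labels and the study's methods differ on the library preparation, and the design text mentions time points that no label names. The main test used the counts as deposited and edgeR 4.0.16 under R 4.3.3 (TMM scaling, filterByExpr, quasi-likelihood test, 15242 genes) and Benjamini-Hochberg adjustment over all tested genes. FPKM was used to compare genes with each other, and with limma 3.58.1 as an alternative. DESeq2 1.42.0, the tool of the study, was an alternative to edgeR, with other scalings, filters, thresholds, a replicate block and each library left out. TMM factors ranged from 0.987 to 1.01 and the biological coefficient of variation was 0.060. Replicates differed by more than sampling noise (chi-square per degree of freedom 2.52 to 7.71). The tests were run first on simulated data. The members and the gene lists were chosen with earlier results of these data known. All 10 members are named, and so are genes that overlap a member. In each companion list called genes whose higher group averaged 50 normalized counts or more were ranked, and the 2 largest increases and 2 largest decreases are named, except 1 gene that is not reported here. Other genes were named after their values were seen. Standard errors were computed from the log2 fold change and edgeR's test statistic, since the test itself gives none, and 95% intervals were built from them. Floors cover counting error only. Coordinates of genes are those of the deposited tables (GRCh38).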

Additional observations from a re-analysis of the deposited data

How the results depend on the processing

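With 3 libraries in each group and a biological coefficient of variation of 0.060, depth limited mainly FOS and FOSB. Over the alternatives run, the number of members called higher was 2 to 7 and the number called lower 0. MAFF (log2 fold change 2.28 to 2.41) and ATF3 (1.85 to 2.18) were called under every one, whereas BATF3 (0.85 to 1.06), JUNB (0.35 to 0.61) and FOSL2 (0.26 to 0.32) were lost under a threshold of 1.2 on the log2 scale, and FOSL2 also with glmTreat. JUND ran from 0.19 to 0.45, with an adjusted p of 7.3e-07 to 0.17. FOSL1 was never called (-0.12 to -0.011). Without parent replicate 2 it passed edgeR's test (adjusted p = 0.023), but its log2 fold change of -0.12 missed the fold threshold. FOS turned from -0.14 to 0.19 without parent replicate 2 (range with a library left out -0.35 to 0.19). FOSB turned from 0.23 to -0.018 without ADRr replicate 2 (range -0.018 to 0.46). Neither passed the test in any of these.

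Under a threshold of 1.2 on the log2 scale in place of 1.2-fold, 2086 genes were called in place of 8958. Then 2 members were called higher, 4 of the other bZIP genes, 0 higher and 0 lower in the MAP kinase cascade, 2 higher and 1 lower phosphatase, 3 higher and 1 lower immediate early or SRF gene, 0 higher and 0 lower turnover genes, and 11 higher and 0 lower target genes. With adjusted p alone, 4 genes of the MAP kinase cascade were called higher and 2 targets lower. With glmTreat, 3 immediate early or SRF genes and 1 turnover gene were called lower. Leaving out a library gave 1 to 2 targets called lower (2 without parent replicate 2 or without ADRr replicate 2, with CCND1 near the threshold).

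Replicate numbers did not pair the libraries, since the deviations of same-numbered libraries correlated at 0.00735, -0.0213 and -0.0457 across genes. With a replicate block, 6 members were called higher, as without it, and 8870 genes in all against 8958.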
